A study of Mus musculus with 6 samples.

Results

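The transcripts of 4 matrix genes, Fn1, Postn, Tnc and Vcan, were examined in infarcted ventricle of mice with the conditional or the wild-type allele of Runx1. All annotated transcripts of these genes were taken, which gave 39 of the 116546 transcripts quantified, 17 of Fn1, 9 of Postn, 4 of Tnc and 9 of Vcan. Poly-A RNA had been sequenced in 6 libraries from C57BL/6J mice aged 8 to 10 weeks, from ventricle distal to a ligature on the left anterior descending coronary artery, 7 days after infarction. Every mouse carried Postn CreER+/-, a recombinase that tamoxifen activates and that the Postn promoter drives, so its expression follows 1 of the 4 genes studied. Every mouse also ate a tamoxifen diet from the operation until the heart was taken. Runx1_FB_KO mice (n = 3 libraries, replicate 1 male, replicates 2 and 3 female) had Runx1 fl, the conditional allele, and CTL mice (n = 3 libraries, replicate 1 female, replicates 2 and 3 male) had Runx1 WT. The gene that the allele targets encodes a DNA-binding transcription factor. What the recombinase transgene does to Postn itself is shared by both groups and was not tested.

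Scar tissue after infarction is laid down by fibroblasts that become activated, and each of these genes encodes a large matrix protein whose RNA is spliced in several ways. Fn1 encodes fibronectin, which links integrins on cells to collagen and fibrin. Its EDA and EDB exons, each a fibronectin type III repeat, are included in the cellular form made by fibroblasts and skipped in the plasma form made by hepatocytes, and its variable (V) region is used whole, in part or not at all. Postn encodes periostin, a matricellular protein of activated fibroblasts whose C-terminal exons are alternative. Tnc encodes tenascin-C, a hexameric glycoprotein induced by injury, with optional fibronectin type III repeats. Vcan encodes versican, a hyaluronan-binding proteoglycan whose exons alpha and beta carry the attachment sites for chondroitin sulfate, so that the forms V0 (both), V1 (beta), V2 (alpha) and V3 (neither) differ in how much they carry.

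The alternative exons that define these forms were read from GENCODE M21 transcripts (GRCm38) and are shown because the shares reported here divide reads by their presence. Capitals mark the exon, and the 10 lower-case bases on each side belong to the neighbouring exons. EDA is exon 33 of Fn1-201 (chr1:71603660-71603929, minus strand, 270 bases) and EDB its exon 25 (chr1:71613763-71614035, 273 bases). The optional Tnc exon that the annotated transcripts separate is exon 14 of Tnc-203 (chr4:63984460-63984732, minus strand, 273 bases). Postn exons 17 (chr3:54380412-54380492, plus strand, 81 bases) and 21 (chr3:54385671-54385754, 84 bases) are numbered as in Postn-202. All 5 are wholly coding and a whole number of codons long (90, 91, 91, 27 and 28), so skipping any of them keeps the reading frame.
EDA: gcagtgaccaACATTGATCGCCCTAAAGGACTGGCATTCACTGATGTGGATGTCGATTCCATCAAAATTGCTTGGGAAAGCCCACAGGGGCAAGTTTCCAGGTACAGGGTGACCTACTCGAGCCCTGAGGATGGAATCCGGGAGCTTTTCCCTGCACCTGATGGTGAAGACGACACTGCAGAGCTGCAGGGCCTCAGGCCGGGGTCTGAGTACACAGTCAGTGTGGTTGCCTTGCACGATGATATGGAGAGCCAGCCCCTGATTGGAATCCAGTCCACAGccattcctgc
EDB: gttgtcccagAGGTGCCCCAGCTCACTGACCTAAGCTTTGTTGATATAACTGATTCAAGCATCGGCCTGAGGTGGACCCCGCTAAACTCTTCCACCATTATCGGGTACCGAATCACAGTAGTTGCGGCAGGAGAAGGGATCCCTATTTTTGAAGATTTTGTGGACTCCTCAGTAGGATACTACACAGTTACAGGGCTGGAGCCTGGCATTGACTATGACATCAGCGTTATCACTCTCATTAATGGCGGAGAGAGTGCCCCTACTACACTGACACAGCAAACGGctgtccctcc
Tnc exon 14: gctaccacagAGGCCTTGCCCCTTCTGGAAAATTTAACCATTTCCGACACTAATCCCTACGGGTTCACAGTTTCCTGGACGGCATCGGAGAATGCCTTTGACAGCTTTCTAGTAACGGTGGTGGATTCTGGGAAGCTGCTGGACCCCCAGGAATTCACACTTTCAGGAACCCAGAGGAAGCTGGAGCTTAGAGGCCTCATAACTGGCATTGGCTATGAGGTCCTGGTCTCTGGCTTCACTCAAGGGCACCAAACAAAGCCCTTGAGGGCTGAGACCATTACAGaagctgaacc
Postn exon 17: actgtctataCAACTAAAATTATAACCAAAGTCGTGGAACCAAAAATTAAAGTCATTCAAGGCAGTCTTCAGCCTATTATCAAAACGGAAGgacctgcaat
Postn exon 21: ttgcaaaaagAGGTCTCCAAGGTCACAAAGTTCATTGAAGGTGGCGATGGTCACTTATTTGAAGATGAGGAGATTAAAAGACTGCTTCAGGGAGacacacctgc

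Other forms of Fn1 and Vcan differ in where a shared upstream exon is joined, so the junctions are shown, with 15 lower-case bases of the upstream exon and, in capitals, the 15 bases that follow it. In Fn1 the V exon starts at 3 places, which gives the forms V120, V95 and V0 with 120, 95 and 0 extra codons. The stretch that V120 has and V95 lacks contains the binding site for integrin alpha4 beta1. Fn1-202, annotated as a retained intron, reads on into the 626-base intron upstream of the V exon (chr1:71597748-71598373). In Vcan the V0 and V2 forms share a junction into exon alpha (exon 7 of Vcan-203, 2880 bases), V1 goes to exon beta (exon 8, 5217 bases) and V3 joins the exon beyond both.
Fn1 V120: ggaggaagaagacagATGAGCTTCCCCAAC
Fn1 V95: ggaggaagaagacagTTCAAAAGACCCCCT
Fn1 V0: ggaggaagaagacagGACAGGAAGCTCTCT
Fn1-202: ggaggaagaagacagGTAAAGACTCATAAC
Vcan V0 and V2: cctactgctttaaacCTAAACAGAATATAT
Vcan V1: cctactgctttaaacGTCGATTGAGTGATA
Vcan V3: cctactgctttaaacGACCTGATCTCTGCA

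**Figure D1:**
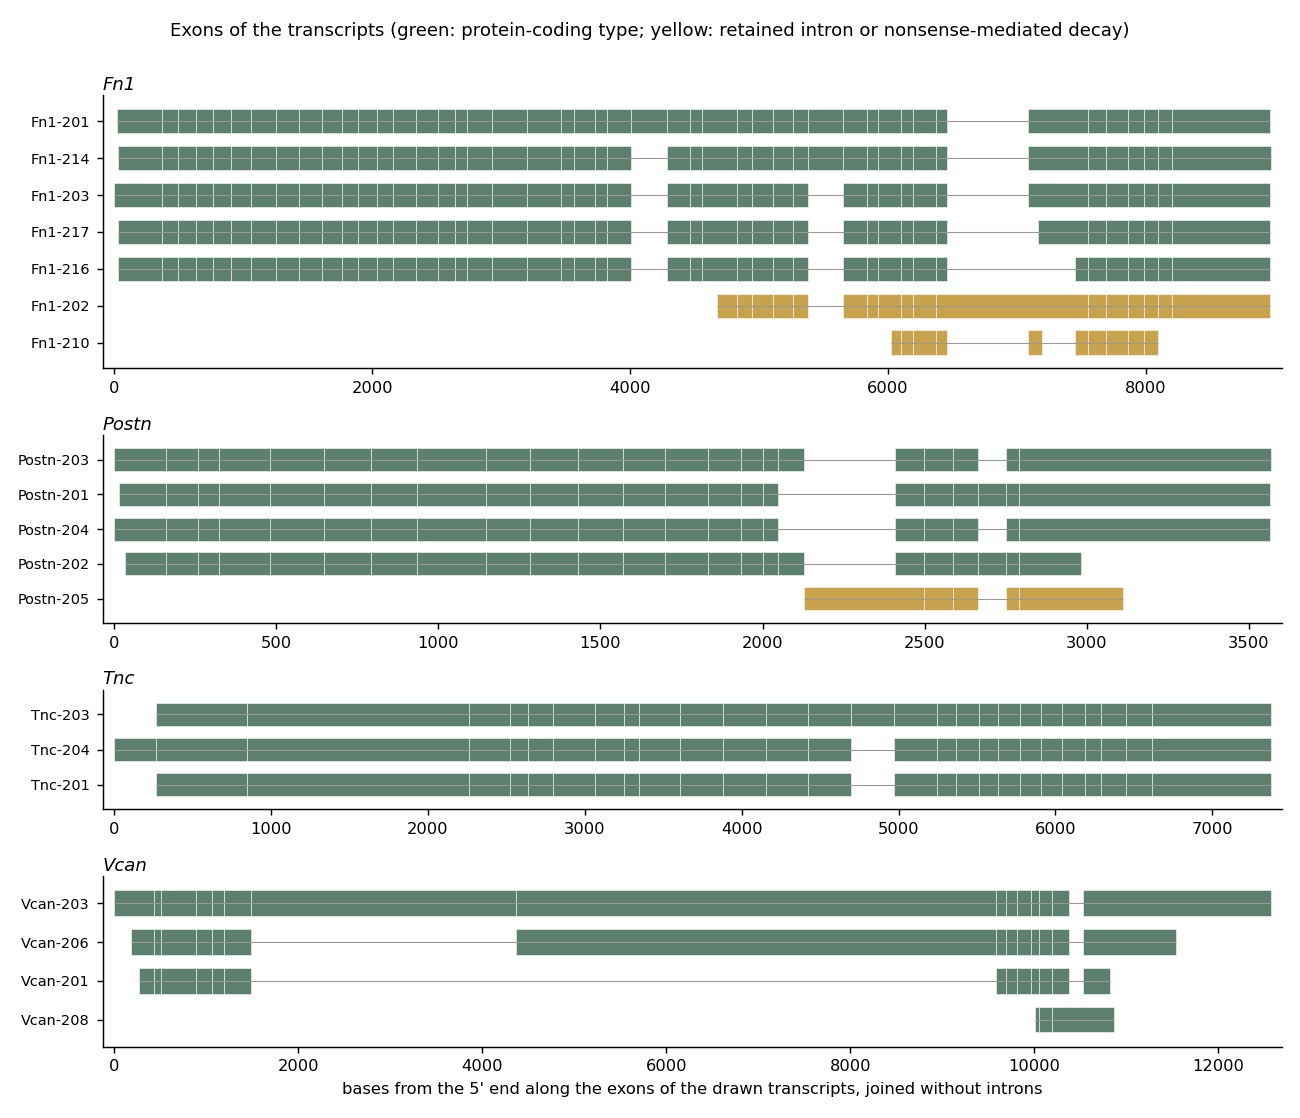
Exons of the main transcripts of Fn1, Postn, Tnc and Vcan, drawn along the joined exons in bases from the 5' end, with thin lines where a transcript lacks sequence that another has. Fn1-202 covers only the 3' part of Fn1 and crosses the retained intron, and Vcan-203 is the longest transcript, at 12427 bases.

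The libraries held 16598561 to 19987279 estimated reads, and Runx1_FB_KO replicate 3 stood apart from the other libraries of its group. Runx1 had 17.5, 10.9 and 67.4 CPM (counts scaled to library size) in Runx1_FB_KO replicates 1, 2 and 3, against 96.4, 86.9 and 85.5 in CTL (log2 fold change -1.48 ± 0.63 (SE), edgeR quasi-likelihood adjusted p = 0.154). The exons that the conditional allele removes are not named in the labels. Mitochondrially encoded genes took 24.5%, 19.6% and 10.4% of reads in the Runx1_FB_KO libraries and 5.69%, 7.10% and 5.36% in CTL. All 8 cardiomyocyte markers were tested and none was at 0, and their summed level was 66524, 82254 and 24078 CPM in Runx1_FB_KO and 11720.4, 12334 and 10151 CPM in CTL. The 8 fibroblast markers, Postn among them, were all detected as well and summed to 5429, 5413 and 19936 CPM in Runx1_FB_KO and 22831, 23465 and 22556 CPM in CTL. Most of that sum in CTL was Col1a1 and Col1a2, and the markers differed among themselves. Col1a1, a chain of collagen I, had 1879.8, 1959 and 8606 CPM in Runx1_FB_KO and 11429, 9203 and 10089.9 CPM in CTL, whereas Dcn (decorin) had 819, 969 and 895 CPM in Runx1_FB_KO and 604, 1274 and 879.5 CPM in CTL. The edgeR log2 fold changes were -1.30 for Col1a1, -0.04 for Dcn, -0.51 for Pdgfra and -0.60 for Lum (adjusted p = 0.224, 0.937, 0.0890 and 0.231). The 6 myofibroblast markers were all lower in the mean of Runx1_FB_KO and summed to 444, 314 and 2679.8 CPM there and 2636, 2914 and 3073 CPM in CTL. The 8 macrophage markers were all lower in the mean too, with 625, 577 and 1362 CPM in Runx1_FB_KO and 1917, 1396 and 1498 CPM in CTL. None of these markers passed the test. Replicate 3 of Runx1_FB_KO thus lay nearer to CTL than the other libraries of its group in Runx1 and in each of these sums. In whole ventricle, fewer cells of a type and less RNA per cell cannot be told apart, and the part that cell composition has in the levels below was not tested.

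All 4 genes had lower mean levels in Runx1_FB_KO than in CTL, by low values in replicates 1 and 2, and none passed the test. Their order by level, in TPM (a read share corrected for transcript length), was Fn1, Postn, Tnc and Vcan in the mean of either group. In Runx1_FB_KO replicate 1, however, Postn was above Fn1 and Vcan above Tnc, and in CTL replicate 2 Postn was above Fn1. Neither neighbouring pair was separated in every library, so only the step between Fn1 or Postn and the other genes held throughout.

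Fn1 (ENSMUSG00000026193, chr1:71585520-71653200) had 129, 105 and 1372 TPM in Runx1_FB_KO replicates 1 to 3, against 1700.5, 1781 and 1944 TPM in CTL. The groups did not overlap, and the means were 536 ± 725 and 1808 ± 124 TPM (SD, n = 3 each). On CPM scaled by the trimmed mean of M values (TMM), Fn1 was the only member whose groups did not overlap, as they also did not, with Runx1_FB_KO lower, for 18.8% of all genes tested. On TPM the same holds for 47.4% of genes, so the TPM separation of Fn1 is close to the background. The log2 fold change of Fn1 was -1.27 ± 0.76 (SE, adjusted p = 0.265, edgeR).

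Postn (ENSMUSG00000027750, chr3:54361109-54391037) had 177, 93.1 and 1221 TPM in Runx1_FB_KO and 919, 2096 and 1612 TPM in CTL. Replicate 3 of Runx1_FB_KO lay inside the CTL range, and the CTL libraries themselves were spread, with means of 497 ± 628 and 1543 ± 591 TPM. Its log2 fold change was -1.23 ± 0.76 (adjusted p = 0.274, edgeR). Tnc (ENSMUSG00000028364, chr4:63959785-64047015) had 6.25, 7.38 and 63.9 TPM in Runx1_FB_KO and 97.9, 55.5 and 44.6 TPM in CTL, with a log2 fold change of -0.97 ± 0.71 (adjusted p = 0.350, edgeR). Here too replicate 3 was within the CTL libraries. Vcan (ENSMUSG00000021614, chr13:89655312-89742509) had the lowest mean levels, 9.67, 7.01 and 32.5 TPM in Runx1_FB_KO and 42.9, 44.1 and 32.3 TPM in CTL, and a log2 fold change of -0.61 ± 0.40 (adjusted p = 0.303, edgeR).

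Of all 14237 genes tested, 0 passed an adjusted p of 0.05 in either direction (0%), while 4619 (32.4%) had an unadjusted p under 0.05 in edgeR and DESeq2 called 3018. None of the 4 members had an unadjusted p under 0.05 (0.138, 0.146, 0.214 and 0.171 for Fn1, Postn, Tnc and Vcan in edgeR). Relative to the CTL mean, Runx1_FB_KO replicate 3 had 0.759 of the Fn1 level, 0.791 of Postn, 0.968 of Tnc and 0.818 of Vcan in TPM. The mean of replicates 1 and 2 had 0.0648, 0.0875, 0.103 and 0.210 of it. These TPM fractions are not TMM-scaled, and on TMM-scaled CPM the gap of replicates 1 and 2 to CTL was smaller for each gene. Fn1 had 1015, 797 and 5338 CPM in Runx1_FB_KO and 5513, 5681 and 6078 CPM in CTL. Vcan had 82.1, 49.8 and 161 CPM in Runx1_FB_KO and 166, 148 and 134 CPM in CTL. Without replicate 3 all 4 members passed, with edgeR log2 fold changes of -2.63 ± 0.22, -2.45 ± 0.42, -2.21 ± 0.35 and -1.14 ± 0.22 (adjusted p = 0.000142, 0.00284, 0.00209 and 0.00515), in a fit that called 22.5% of all genes lower.

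**Figure D2:**
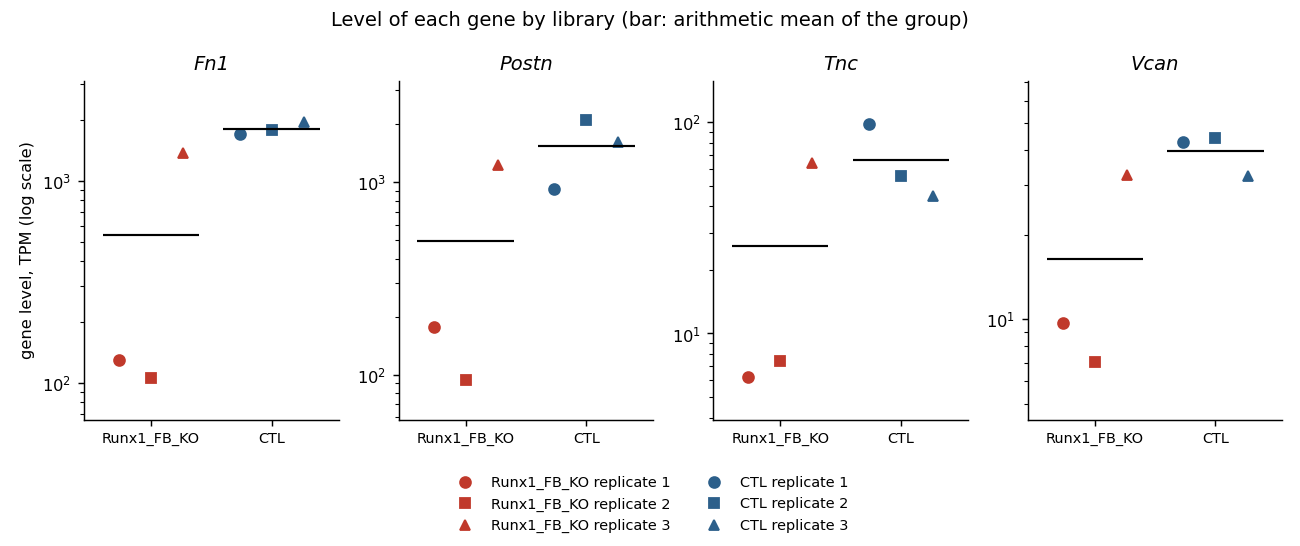
Level of Fn1, Postn, Tnc and Vcan in TPM on log axes, 1 point per library, with a bar at the arithmetic mean of each group. Runx1_FB_KO replicates 1 and 2 are below every CTL library for each gene, and replicate 3 is below CTL for Fn1 alone.

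Each gene was then divided by marker levels of its library, first by the summed TPM of 7 fibroblast markers (Pdgfra, Dcn, Col1a1, Col1a2, Lum, Tcf21 and Pdgfrb, without Postn). This sum was 1148, 1236 and 5729.9 TPM in Runx1_FB_KO and 7407, 7639.8 and 7468 TPM in CTL. Col1a1 and Col1a2 made up 49.7%, 47.7% and 78.5% of it in Runx1_FB_KO and 86.2%, 74.6% and 79.7% in CTL, so the ratio is in large part one to collagen I. The ratio of Fn1 to it was 0.113, 0.0850 and 0.239 in Runx1_FB_KO and 0.230, 0.233 and 0.260 in CTL, so replicates 1 and 2 were below CTL in this ratio as well and replicate 3 was not (two-sided exact permutation p = 0.3, where 0.1 is the smallest that 3 against 3 allows). The Postn ratio was 0.154, 0.0753 and 0.213 in Runx1_FB_KO and 0.124, 0.274 and 0.216 in CTL, and the groups overlapped. For Tnc it was 0.00544, 0.00597 and 0.0111 against 0.0132, 0.00726 and 0.00597, and for Vcan 0.00843, 0.00567 and 0.00568 against 0.00580, 0.00577 and 0.00433, in Runx1_FB_KO against CTL. Vcan was the gene whose mean ratio was higher in Runx1_FB_KO (0.00659 ± 0.00159 against 0.00530 ± 0.000842 in CTL, SD, n = 3 each, exact permutation p = 0.6).

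The ratios depended on the markers used, in a check added after the values were seen. Divided by the 5 fibroblast markers other than Col1a1 and Col1a2, Fn1 had ratios of 0.224, 0.163 and 1.11 in Runx1_FB_KO and 1.66, 0.916 and 1.28 in CTL. Divided by the 6 myofibroblast markers, it had 0.759, 0.826 and 0.901 in Runx1_FB_KO and 0.915, 0.976 and 0.961 in CTL (exact permutation p = 0.1). The Fn1 ratio was thus lower in the mean of Runx1_FB_KO with each denominator, and its groups overlapped with either set of fibroblast markers. Relative to the myofibroblast markers, Postn had a mean ratio of 0.857 ± 0.161 in Runx1_FB_KO and 0.813 ± 0.327 in CTL, and Tnc 0.0456 ± 0.0111 and 0.0350 ± 0.0158 (SD, n = 3 each), so both means were higher in Runx1_FB_KO with this denominator and lower with the fibroblast markers. Vcan had 0.0180 ± 0.00787 in Runx1_FB_KO and 0.0286 ± 0.0115 in CTL relative to the 5 fibroblast markers, below CTL where the 7 markers put it above. Relative to the myofibroblast markers the Vcan mean was above CTL as well, at 0.0444 ± 0.0200 in Runx1_FB_KO and 0.0211 ± 0.00446 in CTL. The single ratios were 0.0568, 0.0551 and 0.0214 in Runx1_FB_KO and 0.0231, 0.0242 and 0.0160 in CTL, with overlap (exact permutation p = 0.3). The part that cell composition has in these ratios was not tested. Markers of hepatocytes, the source of plasma fibronectin, summed to at most 0.459 CPM in any library, and 1 of the 4, Serpina1a, was at 0 throughout.

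**Figure D3:**
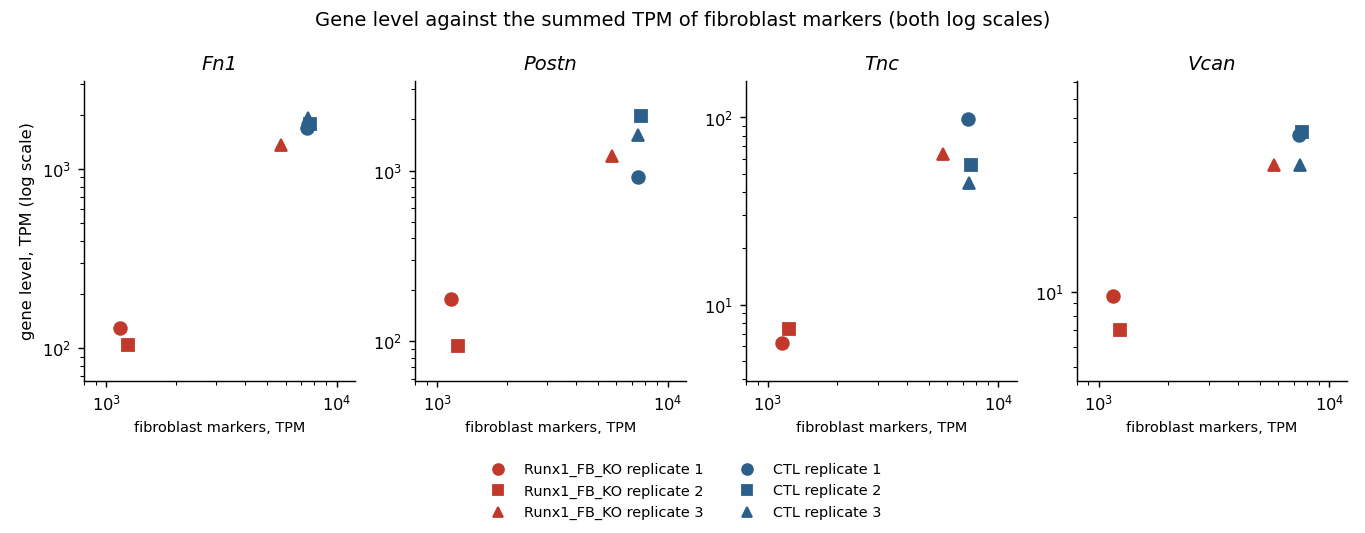
Level of each gene (vertical, TPM) against the summed TPM of 7 fibroblast markers (horizontal), 47.7% to 86.2% of which is Col1a1 and Col1a2, both on log axes, 1 point per library. Runx1_FB_KO replicates 1 and 2 are low on both axes, and replicate 3 and the CTL libraries lie together at the upper right.

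At the level of single transcripts, every member that could be tested had a negative log2 fold change in edgeR (27 of 27, median -1.32), against 53.8% of all 32454 transcripts tested. None of the 27 passed, as did none of all transcripts (0%, with 5652 or 17.4% at an unadjusted p under 0.05 and 3062 called by DESeq2). These 27 share their genes' levels and are not independent of each other. Of the other 12, 5 were listed at 0 in every library and 7 did not pass the filter on low counts. Without Runx1_FB_KO replicate 3, 12 of 28 passed as lower, 8 of them from Fn1, in a fit that called 6.59% of all transcripts lower.

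Shares of each transcript in its gene's TPM were compared next, since they do not depend on the level of the gene. Of the 39 transcripts, 16 had a mean share of at least 5%, and in 4 of these the groups did not overlap (2 lower and 2 higher in Runx1_FB_KO), against 16.6% of all transcripts with a mean share between 5% and 95%, 8.27% lower and 8.33% higher. With 3 against 3 libraries no exact permutation p can be below 0.1. In the test of shares across all genes (edgeR diffSpliceDGE) 149 of 26604 transcripts passed (0.560%), and none of the members did (smallest unadjusted p = 0.0174, adjusted p = 0.99998). The shares are Salmon's division of reads between overlapping transcripts, and its uncertainty was not used here, so the spread between libraries is the one error given.

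**Figure D4:**
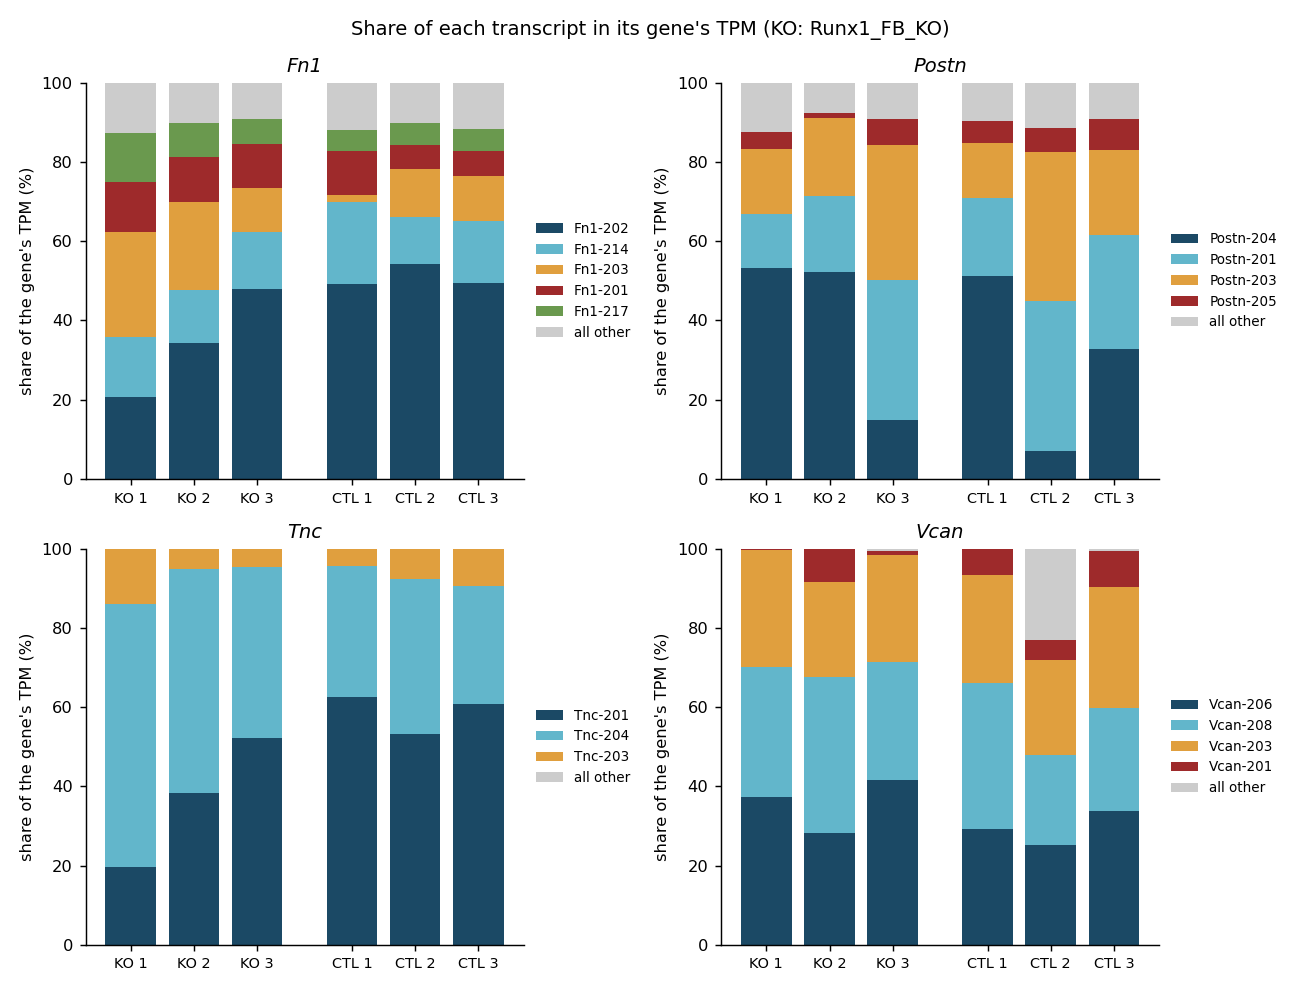
Share of each transcript in the TPM of its gene, in percent, stacked for each of the 3 Runx1_FB_KO (KO) and 3 CTL libraries, with transcripts under a mean of 5% joined in grey. Fn1-202 takes 20.7% to 47.9% in Runx1_FB_KO and 49.2% to 54.2% in CTL, and Tnc-204 43.2% to 66.6% and 29.7% to 39.1%.

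Fn1 had the most transcripts, and the one with the largest mean share in either group was not a full-length messenger. Fn1-202, a 4022-base transcript of the 3' part with the retained intron, held 20.7%, 34.4% and 47.9% of Fn1 TPM in Runx1_FB_KO and 49.2%, 54.2% and 49.3% in CTL. All Runx1_FB_KO shares were below all CTL shares, with means of 34.3% ± 13.6 and 50.9% ± 2.81 (SD, n = 3 each, exact permutation p = 0.1). In Runx1_FB_KO replicate 1 it was not the largest, since Fn1-203 held 26.4%. By estimated reads Fn1-203 held more than Fn1-202 in replicates 1 and 2 (31.7% against 12.4%, and 27.9% against 21.7%). The log2 change of Fn1-202 relative to the rest of the gene was -0.37 ± 0.88 (SE, adjusted p = 0.99998, edgeR diffSpliceDGE). Full-length transcripts with V120 share 84.4% of its sequence, and those with V95 or V0 share less. Over all genes but Fn1 and the mitochondrial ones, retained-intron transcripts took 2.94%, 2.46% and 3.64% of TPM in Runx1_FB_KO and 4.54%, 3.89% and 4.28% in CTL, so this class was lower in the same libraries, and its part in the Fn1-202 share was not tested.

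The full-length coding Fn1 transcripts, 7 in all, together held 71.1%, 60.7% and 45.8% of Fn1 TPM in Runx1_FB_KO and 40.5%, 38.0% and 41.0% in CTL. These shares did not overlap either, and are the converse of those of Fn1-202. Fn1-214 (EDA and V120) held 15.1%, 13.3% and 14.3% in Runx1_FB_KO and 20.7%, 11.9% and 15.8% in CTL. The groups overlapped in this share (difference of means -1.95 percentage points, exact permutation p = 0.6). Among protein-coding transcripts only, which leaves Fn1-202 out of the total, its share differed by -15.6 points without overlap (exact permutation p = 0.1). The nearest libraries there, Runx1_FB_KO replicate 3 and CTL replicate 2, lay close together. In that setting diffSpliceDGE gave a log2 change of -0.51 for Fn1-214 (adjusted p = 0.999998). Fn1-203, with V120 and neither extra domain, held 26.4%, 22.1% and 11.1% in Runx1_FB_KO and 1.604%, 12.1% and 11.3% in CTL, and the low value was that of CTL replicate 1. Fn1-201, the one transcript with EDB (and with EDA and V120), held 12.8%, 11.5% and 11.2% in Runx1_FB_KO and 11.2%, 6.06% and 6.28% in CTL. Fn1-217 (V95, neither extra domain) held 12.4%, 8.58% and 6.35% in Runx1_FB_KO and 5.27%, 5.61% and 5.61% in CTL, without overlap (exact permutation p = 0.1), and its log2 change relative to the rest of the gene was 0.28 ± 0.85 (SE, adjusted p = 0.99998, edgeR diffSpliceDGE). Among protein-coding transcripts only, the Fn1-217 difference was 1.34 points, against 3.62 over all transcripts, and the groups overlapped (exact permutation p = 0.4). The other 12 Fn1 transcripts had mean shares of 3.10% or less, and 2 of them (Fn1-211 and Fn1-213, both with EDA) were listed at 0 in every library.

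Inclusion of the extra domains differed between the groups by less than the spread between CTL libraries. Among full-length coding TPM, EDA was present in 39.2%, 40.8% and 55.6% in Runx1_FB_KO and in 78.9%, 47.4% and 53.8% in CTL, with means of 45.2% ± 9.02 and 60.0% ± 16.6 (SD, n = 3 each, exact permutation p = 0.3). When every transcript that spans the exon was counted, Fn1-202 among those without it, EDA inclusion was 30.3%, 26.1% and 27.1% in Runx1_FB_KO and 35.6%, 19.5% and 24.4% in CTL, so the mean difference changed sign with the transcripts counted. EDB was present in 17.9%, 19.0% and 24.4% of full-length coding TPM in Runx1_FB_KO and 27.7%, 15.95% and 15.3% in CTL (exact permutation p = 0.9). For both exons CTL replicate 1 was the highest of the 6 libraries. The estimated reads of the transcripts with EDA, over their whole length, were 5443, 3355 and 39081 in Runx1_FB_KO and 61372, 35995 and 41834 in CTL. Most of that length is shared with transcripts that lack EDA, and the exon itself is 270 bases.

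In the V region the order V120, V95, V0 held in every library. V120 made up 76.3%, 77.3% and 79.8% of full-length coding TPM in Runx1_FB_KO and 82.8%, 79.2% and 81.3% in CTL. V95 made up 17.5%, 14.1% and 13.9% in Runx1_FB_KO and 13.0%, 14.8% and 13.7% in CTL. V0 was the smallest form, at 6.28%, 8.56% and 6.33% in Runx1_FB_KO and 4.17%, 6.04% and 5.02% in CTL, and its groups did not overlap, although the nearest values were 6.28% and 6.04% (means 7.06% ± 1.30 and 5.08% ± 0.94, SD, n = 3 each, exact permutation p = 0.1). The V region thus varied less between libraries than EDA did.

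One more Fn1 exon met the rule for named exons, a 106-base exon at chr1:71597642-71597747 of Fn1-210, which is annotated for nonsense-mediated decay. These bases are also the 5' end of the longer V120 exon, so only the exon's 3' boundary is particular to Fn1-210, and its inclusion leaves out the other transcripts that carry them, the V120 forms among them. Of the TPM of Fn1-210 and the V0 transcripts that skip these bases, Fn1-210 held 0%, 11.3% and 39.6% in Runx1_FB_KO and 73.0%, 53.8% and 68.5% in CTL, and all Runx1_FB_KO values were below all CTL values. The limma log2 inclusion ratio differed by -4.02 ± 1.34 (SE, unadjusted p = 0.0248, adjusted p = 0.312). Fn1-210 had 0, 10.3 and 344 estimated reads in Runx1_FB_KO and 1029, 629 and 993.9 in CTL, a mean share of Fn1 TPM of 0.854% ± 0.966 and 3.90% ± 1.07. Its share was the 1 member share (of 28 tested) that passed without Runx1_FB_KO replicate 3, where diffSpliceDGE gave a log2 change of -4.09 ± 0.91 (SE, adjusted p = 0.00984) and 1.36% of all shares passed. With all 6 libraries that change was -1.45 ± 1.07 (adjusted p = 0.99998).

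Among 21528 skipped exons tested across the annotation, 152 passed in limma (0.706%), and none of the members' 14 did. Where the mean inclusion was 2% to 98%, 17.4% of exons had groups that did not overlap, against 2 of the 9 such member exons.

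**Figure D5:**
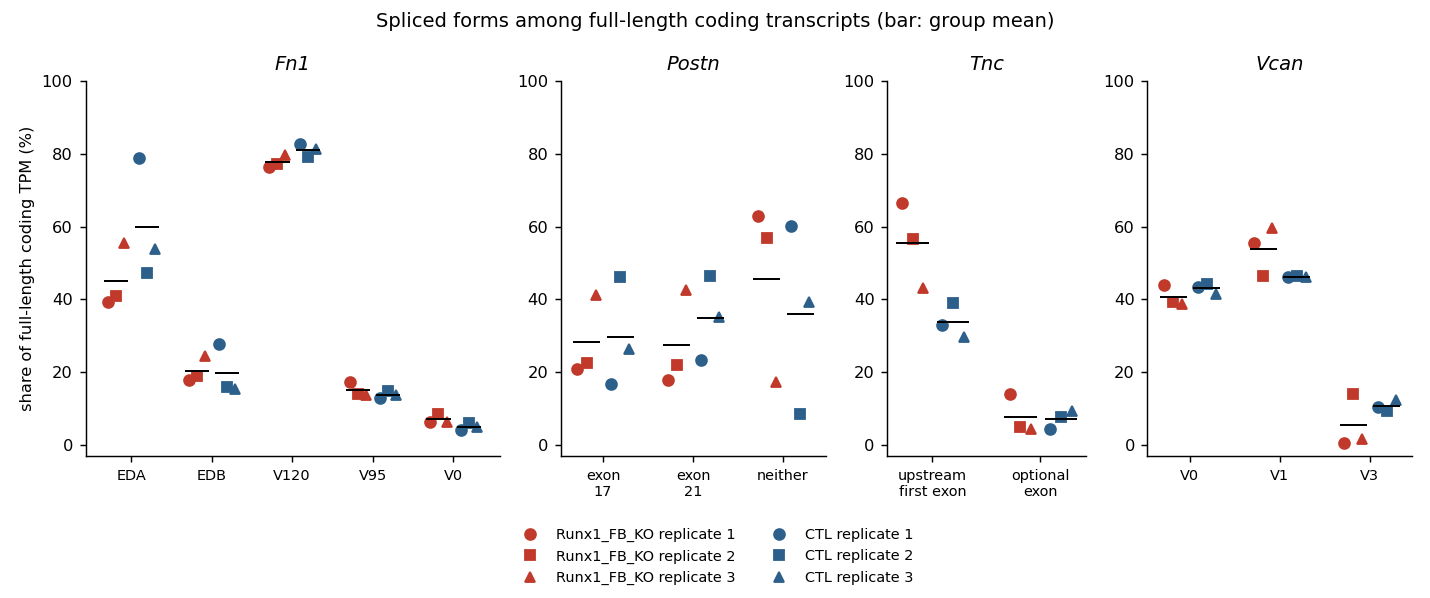
Share of each spliced form in the TPM of the full-length coding transcripts of its gene, in percent, 1 point per library with a bar at the group mean. EDA ranges from 39.2% to 55.6% in Runx1_FB_KO and from 47.4% to 78.9% in CTL, and the Tnc upstream first exon averages 55.4% in Runx1_FB_KO and 33.9% in CTL.

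Among the members, Postn had the widest spread of shares within CTL. Postn-204, which lacks exons 17 and 21, held 53.1%, 52.3% and 14.8% of Postn TPM in Runx1_FB_KO and 51.3%, 7.06% and 32.9% in CTL. Postn-201 (exon 21) held 13.8%, 19.1% and 35.4% in Runx1_FB_KO and 19.6%, 37.9% and 28.7% in CTL, and Postn-203 (exon 17) held 16.4%, 19.6% and 34.2% in Runx1_FB_KO and 13.9%, 37.6% and 21.3% in CTL. Where Postn-204 was low, in Runx1_FB_KO replicate 3 and CTL replicate 2, both of these were high. Postn-205, a 900-base retained-intron transcript, held 4.32%, 1.39% and 6.45% in Runx1_FB_KO and 5.505%, 6.02% and 8.04% in CTL. None of these 4 separated the groups, and the median SD of their shares within CTL, 10.6 percentage points, was above that of 69.9% of transcripts with a share of 5% to 95%, whose median was 6.39.

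Counted by exon, exon 17 was in 20.9%, 22.5% and 41.2% of full-length coding Postn TPM in Runx1_FB_KO and in 16.7%, 46.1% and 26.4% in CTL. Exon 21 was in 17.8%, 21.9% and 42.7% in Runx1_FB_KO and in 23.4%, 46.5% and 35.2% in CTL. The form with both exons, Postn-202, was rare, at 1.57%, 1.16% and 1.24% in Runx1_FB_KO and 0.336%, 1.05% and 0.898% in CTL, so the exons were mostly found in separate transcripts of the annotation. A further 78-base exon (chr3:54385208-54385285), skipped by Postn-206 alone, was included at 93.4%, 95.2% and 94.8% in Runx1_FB_KO and 95.9%, 96.2% and 95.5% in CTL, without overlap (limma adjusted p = 0.547). The other 5 Postn transcripts had mean shares of 0.652% to 4.64%. One of them, Postn-209, named after its values were seen, had 0 reads in every Runx1_FB_KO library and 59.8, 496 and 70.4 estimated reads in CTL, and is the member with the smallest unadjusted p for share given above.

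In Tnc, the groups did not overlap in the use of an upstream first exon, which did not pass the test. Tnc-204 is Tnc-201 with a noncoding first exon of 267 bases (chr4:64046749-64047015) that starts 26290 bases upstream, and every other exon is the same. Tnc-204 held 66.6%, 56.5% and 43.2% of Tnc TPM in Runx1_FB_KO and 32.9%, 39.1% and 29.7% in CTL, with means of 55.4% ± 11.7 and 33.9% ± 4.76 (SD, n = 3 each). Tnc-201 held 19.5%, 38.4% and 52.2% in Runx1_FB_KO and 62.6%, 53.2% and 60.8% in CTL. The groups overlapped for neither transcript (exact permutation p = 0.1 each), and Runx1_FB_KO replicate 3 was nearest to CTL in both. Relative to the rest of the gene, diffSpliceDGE gave log2 changes of 0.49 ± 0.80 for Tnc-204 and -0.37 ± 0.79 for Tnc-201 (SE, adjusted p = 0.99998 each). The estimated reads of Tnc-204 were 542, 464 and 2655 in Runx1_FB_KO and 3133, 2098 and 1115 in CTL, so the higher share is one of a smaller total in replicates 1 and 2. These reads are counted over all 7100 bases of Tnc-204. Only its first exon of 267 bases tells it from Tnc-201, so most of them cannot separate these transcripts.

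The type III exon of Tnc that these transcripts include or skip, exon 14, was a minor form in every library. Inclusion of other optional repeats cannot be read from the annotated Tnc transcripts, since no other internal exon differs between them. Tnc-203 held 13.9%, 5.06% and 4.54% of Tnc TPM in Runx1_FB_KO and 4.41%, 7.69% and 9.49% in CTL, and the groups overlapped (limma log2 inclusion difference 0.14 ± 0.63, SE, adjusted p = 0.919). The high value in Runx1_FB_KO replicate 1 rested on 114 estimated reads over all 7106 bases of Tnc-203, of which the exon is 273. Tnc-202 had a mean share of 0.0342%.

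Vcan was divided between the forms V0 and V1 in every library, and V2, the form with exon alpha alone, was listed at 0 throughout. Of full-length coding Vcan TPM, V0 (Vcan-203) made up 43.9%, 39.4% and 38.7% in Runx1_FB_KO and 43.3%, 44.4% and 41.6% in CTL. V1 (Vcan-206) made up 55.5%, 46.6% and 59.7% in Runx1_FB_KO and 46.2%, 46.4% and 46.1% in CTL. The V1 groups did not overlap, but the nearest values were 46.6% in Runx1_FB_KO and 46.4% in CTL (exact permutation p = 0.1). V3 (Vcan-201), which carries neither attachment exon, made up 0.667%, 14.1% and 1.63% in Runx1_FB_KO and 10.4%, 9.25% and 12.3% in CTL, on 1.7, 20.2 and 10.9 estimated reads in Runx1_FB_KO and 84.2, 66.1 and 74.4 in CTL. Its low values in replicates 1 and 3 of Runx1_FB_KO thus rested on few reads, while replicate 2 was above every CTL library.

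Counted over all Vcan TPM, Vcan-206 held 37.3%, 28.2% and 41.5% in Runx1_FB_KO and 29.1%, 25.2% and 33.8% in CTL, and Vcan-203 held 29.5%, 23.8% and 26.9% in Runx1_FB_KO and 27.3%, 24.1% and 30.5% in CTL. Vcan-208, a coding transcript of 861 bases from the 3' end, held 32.7%, 39.5% and 29.996% in Runx1_FB_KO and 37.0%, 22.7% and 26.0% in CTL, on 26.2 to 137 estimated reads per library. Vcan-201 held 0.449%, 8.51% and 1.13% in Runx1_FB_KO and 6.58%, 5.02% and 8.999% in CTL. The groups overlapped for all 4 transcripts. Of the other 5 Vcan transcripts 3 were listed at 0 throughout, and Vcan-204, of 294 bases, took 22.7% in CTL replicate 2 on 7.8 reads and was at 0 elsewhere. Inclusion of exon beta was 99.3%, 85.9% and 98.4% in Runx1_FB_KO and 89.6%, 90.8% and 87.7% in CTL (limma adjusted p = 0.436).

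Other genes of the same matrix were counted from lists. Of 14 receptors and binding partners, all tested, 12 had a negative log2 fold change, and the median was -0.56, against 54.0% negative over all genes and a median of -0.06. None passed in edgeR with all 6 libraries. Without Runx1_FB_KO replicate 3, 10 receptors passed as lower and 0 as higher, in a fit that called 22.5% of all genes lower and 25.1% higher. The smallest p-values over all 6 libraries were those of Egfr (-0.87 ± 0.30, SE, adjusted p = 0.114), a receptor that repeats of tenascin-C can bind, and Itga4 (-1.17 ± 0.41, adjusted p = 0.116), the integrin subunit that binds the V region of fibronectin. Itga4 had 10.8, 8.67 and 25.1 CPM in Runx1_FB_KO and 36.8, 25.5 and 38.4 CPM in CTL, without overlap. Of 16 matrix partners, 14 were tested, 11 had negative values (median -0.99) and none passed. Without that library 9 passed as lower and 1, Has3, as higher. The smallest p-values over all 6 libraries were those of Fbln2 (-1.31 ± 0.46, adjusted p = 0.118), fibulin-2, a matrix glycoprotein that binds fibronectin and versican, and Has3 (1.11 ± 0.42, adjusted p = 0.132), a hyaluronan synthase, with 3.67, 2.50 and 1.79 CPM in Runx1_FB_KO and 1.16, 1.47 and 1.04 CPM in CTL.

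Among 7 relatives of the members (tenascins, lecticans and Tgfbi), 5 were tested, 4 had negative values and none passed. Without Runx1_FB_KO replicate 3, Tgfbi, Tnn (tenascin-N) and Acan (aggrecan) passed as lower and Tnxb as higher, Tnn and Acan being named after their values were seen. Tgfbi, a relative of Postn, and Tnxb, tenascin-X, had the smallest p-values over all 6 libraries, with edgeR log2 fold changes of -1.35 ± 0.51 and 1.78 ± 0.70 (adjusted p = 0.132 and 0.139). Of the 7 proteases that can cleave versican, all tested, 6 had negative values and none passed, whereas 5 passed as lower without that library (Adamts1, Adamts4, Adamts8, Adamts9 and Adamts20, of which Adamts4, Adamts8 and Adamts9 are named after their values were seen). The smallest p-values over all 6 libraries were those of Adamts1 (-0.82 ± 0.29, adjusted p = 0.116, edgeR) and Adamts20 (-1.38 ± 0.67, adjusted p = 0.188). Of 24 splicing regulators, 23 were tested, 12 had positive and 11 negative values (median 0.01), and none passed. Without that library 6 passed as higher and 1, Ptbp1, as lower (named after its values were seen). The smallest p-values over all 6 libraries were those of Rbm20 and Rbm24, RNA-binding proteins of heart muscle, with edgeR log2 fold changes of 2.27 ± 0.45 and 1.89 ± 0.44 (adjusted p = 0.0682 each). Rbm20 had 305, 389 and 109 CPM in Runx1_FB_KO and 55.1, 64.2 and 47.7 CPM in CTL, which is the order of the libraries in the summed cardiomyocyte markers within Runx1_FB_KO, and its part in any share above was not tested.

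The genes whose log2 CPM followed each member most closely over the 6 libraries are given as a description, and the points share the split between Runx1_FB_KO replicates 1 and 2 and the other 4 libraries. For Fn1 they were Col11a1, Tram2 and Mgat2 (Pearson r = 0.9998, 0.9997 and 0.999). Col11a1, a fibrillar collagen chain, had 5.17, 2.58 and 228 CPM in Runx1_FB_KO and 241, 236 and 283 CPM in CTL. For Postn they were Mtmr6, Pcdhb21 and 1500015O10Rik (r = 0.998, 0.997 and 0.997), and for Tnc Dtx4, Pknox2 and Reep3 (r = 0.998, 0.998 and 0.995). For Vcan they were Abcg1, Neto1 and Inhba (r = 0.997 each). Inhba, which encodes a subunit of activin, had 10.3, 3.44 and 45.2 CPM in Runx1_FB_KO and 46.6, 31.2 and 32.5 CPM in CTL, so that replicate 3 was inside the CTL range, as it was for Vcan. A high r does not give the size of a change. Mtmr6 had 81.6, 78.5 and 91.4 CPM in Runx1_FB_KO and 89.6, 95.2 and 92.7 CPM in CTL (edgeR log2 fold change -0.14). Neto1 had at most 0.715 CPM in any library.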

How the data were processed

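For each of 6 libraries the authors deposited estimated counts and TPM values of 116546 transcripts, made with Salmon 1.5.2 on mm10 (GRCm38), per the submitters' processing notes, which also name DESeq2 1.44.0. Which annotation release they used is not given in the sources used here. Transcripts were matched by identifier without version to GENCODE M21 (115977 matched, 569 not), and all 39 member transcripts had the annotated length. Estimated counts were summed by gene or kept by transcript, rounded, filtered with filterByExpr and scaled by TMM. Totals ran from 16598561 to 19987279 reads, so precision is limited most where a transcript has few reads.

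Differences of Runx1_FB_KO from CTL were tested with genotype as the single term, by the quasi-likelihood test of edgeR 4.0.16 (genes, transcripts), by diffSpliceDGE (shares) and by limma 3.58.1 on the log2 ratio of TPM with and without an exon (pseudocount 0.1 TPM, genes of mean TPM of at least 1), each over the whole table with Benjamini-Hochberg adjustment and a threshold of 0.05. Standard errors were obtained from each change and its F statistic, or are limma's own. A pseudocount understates ratios of low values. Single shares and ratios were compared by two-sided exact permutation. The tests were checked on simulated data, in which transcripts spread less between libraries than here and no library stood apart from its group. That check thus does not show how the transcript and share tests behave on libraries such as these. The labels do not state whether a library is 1 animal, and p-values measure the spread between these samples, which may be technical.

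Full-length coding transcripts are those that hold the shared first and last coding parts of the gene. Named transcripts have a mean share of at least 5%, and named exons are coding with a mean inclusion of 2% to 98% or belong to the known alternative domains. Each list gives its 2 smallest p-values. The members, lists and rules were chosen with earlier results of these data known. Alternatives were sex as a covariate, a replicate block, other scalings, no filter, DESeq2 1.42.0, protein-coding transcripts only, estimated counts in place of TPM, other TPM minimums and pseudocounts, and omission of each library.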

Additional observations from a re-analysis of the deposited data

How the results depend on the processing

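With 3 libraries a group, 1 library decides the gene and transcript levels. Counts of passing genes were 0 in the reported fit, 889 with no filter, 3018 with DESeq2 and 0 to 6947 when a library was left out. For transcripts they were 0, 12, 3062 and 0 to 5191, and the highest counts were those without Runx1_FB_KO replicate 3. Passing shares numbered 149, 45 with the replicate block, 90 with protein-coding transcripts only and 97 to 415 when a library was left out. For exons the counts were 152, 33 in genes of a mean TPM of at least 10, 17 with protein-coding transcripts only, 96 with sex as a covariate, 0 with the replicate block (limma, where the fit without it had 152) and 108 to 2504 when a library was left out. Of the 16 named shares 4 did not overlap between groups, and 4 to 9 when a library was left out. Omitting a library cannot make separated groups overlap, so this count could only stay or rise. No matching share over all transcripts is given for it, and it is not a result about the members. The cause of the differences between settings was not tested. Samples of the same number deviated from their group means with correlations of -0.0507, 0.113 and 0.0807, so the numbers were not taken as pairs, and the replicate block changed no call on a member gene.

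The log2 fold change ranged over omitted libraries from -2.63 to -0.86 for Fn1, from -2.45 to -0.80 for Postn, from -2.21 to -0.56 for Tnc and from -1.14 to -0.29 for Vcan, and all 4 passed without Runx1_FB_KO replicate 3 alone. Scaling by library size alone moved the median of all genes to -0.52.

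Values that changed sign were all of results that did not pass. The Fn1-203 transcript had 0.14 with sex as a covariate. On the log2 share scale, Postn-204 had -0.15 with library size alone and -0.0192 with protein-coding transcripts only, Tnc-203 had 0.38 with sex as a covariate and 0.0690 with the replicate block, and Vcan-208 had -0.0342 with sex as a covariate. For log2 inclusion, EDA had -0.13 on estimated counts and -0.94 with protein-coding transcripts only, EDB -0.11 and Postn exon 17 0.0240 with sex as a covariate. Over omitted libraries the log2 share ranged from -1.02 to 0.22 for Postn-201, -0.67 to 0.65 for Postn-203, -0.69 to 1.08 for Postn-204, -0.56 to 0.47 for Tnc-203 and -0.10 to 0.27 for Vcan-208. Log2 inclusion ranged from -0.13 to 0.46 for EDA, -0.0710 to 0.46 for EDB, -0.56 to 0.47 for Postn exon 17 and -0.40 to 0.53 for Tnc exon 14. In percentage points of TPM, the difference ranged from -4.05 to 0.34 for Fn1-214, -6.29 to 5.78 for Postn-203, -2.03 to 22.3 for Postn-204, -2.40 to 2.30 for Tnc-203 and -2.17 to 1.03 for Vcan-203. By estimated counts the Vcan-206 and Vcan-203 shares differed by 5.35 and -4.47 points without overlap (exact permutation p = 0.1 each), against 6.28 and -0.57 by TPM. Ratios to other markers, chosen after the values were seen, changed the sign of the mean difference to 0.0440 for Postn and 0.0105 for Tnc (myofibroblast markers) and to -0.0106 for Vcan (fibroblast markers without Col1a1 and Col1a2). Forms with few reads, such as Vcan V3 and the Tnc exon, are limited by depth.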
